A study of Mus musculus with 10 samples.

Results

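Parathyroid hormone (PTH) and vitamin D both act on bone. Expression of 10 genes of their pathways was examined in RNA-seq of mouse osteocytes, the cells buried in bone matrix. The genes were Pth1r, Gnas, Vdr, Rxra, Cyp24a1, Cyp27b1, Sik2, Hdac4, Hdac5 and Mef2c. They were picked by gene name from a table of 22548 genes, and each name matched 1 row. The cells came from C57BL/6 mice that the labels call male and 8 weeks of age, without saying whether that age was at injection or at isolation. In 5 mice (MM 6 to MM 10) the murine Vk*MYC myeloma line Vk12598 had been injected into the femur, and 5 control mice (No MM 1 to No MM 5) received no myeloma cells (PBS in the methods of the study). Osteocytes were isolated after 6 weeks by repeated digestion of bone pieces with collagenase and EDTA, without a sort, and the comparison of MM with No MM asks how myeloma alters osteocyte expression.

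PTH binds the receptor encoded by Pth1r, which couples to the stimulatory G protein alpha subunit encoded by Gnas and raises cyclic AMP. In osteocytes, cyclic AMP is known to inhibit the salt-inducible kinase encoded by Sik2, so that the class IIa histone deacetylases Hdac4 and Hdac5 enter the nucleus and restrain the transcription factor Mef2c at the Sost enhancer. PTH also induces Cyp27b1 in the kidney, whose product makes active vitamin D, and active vitamin D acts through Vdr and its partner Rxra to induce Cyp24a1, whose product degrades it.

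Between 31099174 and 39466332 reads were counted per library, and 3 counts corresponded to 0.0709 to 0.114 CPM (read counts scaled to library size by TMM). All 12 osteocyte markers were detected, and Dmp1, a matrix protein gene of osteocytes, ranged from 112 to 885 CPM. No MM 3 and No MM 4 stood apart from the other 8 libraries. Immunoglobulin genes took 26.8% and 29.3% of their reads, against 0.644% to 3.98% elsewhere. The 12 plasma cell markers summed to 13860 to 13960 CPM in these libraries and to 870 to 1657 CPM in the other 8, whereas the 10 osteoblast markers summed to 2949 to 4209 CPM against 14570 to 51570 CPM. The 12 osteocyte markers summed to 886 to 989 CPM in No MM 3 and No MM 4 and to 1110 to 3304 CPM elsewhere. Dmp1 was lowest in both, at 126 and 112 CPM. Summed osteoclast, erythroid and neutrophil markers were also lower in both than elsewhere, while summed skeletal muscle markers lay within the range of the others. None of these markers was under 1 CPM in every library. Both libraries are labelled No MM, so all 12 plasma cell markers were lower in MM at an unadjusted edgeR p under 0.05 (1 of 12 without them), and whether their labels are right was not tested. Their labels were kept, and the doubt bears on every comparison given with all 10 libraries. The label male did not match 7 libraries (No MM 1 to 4 and MM 6 to 8), in which 4 Y-linked genes had 0 to 47 reads together and Xist had 951 to 30370. The methods of the study name mice of either sex. Results are therefore also given without No MM 3 and No MM 4, and Sik2 and Cyp27b1 within those 7 libraries.

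Of the 10 genes, 9 passed the filter on low counts and were tested, and Cyp24a1 did not. With edgeR's quasi-likelihood test and Benjamini-Hochberg adjustment, 0 of the 9 passed an adjusted p of 0.05, and 0.0% of all 16186 tested genes did. At an unadjusted p under 0.05, Sik2 was higher in MM and Cyp27b1 was lower, so 1 of 9 was past that limit in each direction, where 3.81% of all tested genes were higher and 10.3% lower. DESeq2 gave adjusted p-values of 0.0706 for Sik2 and 0.102 for Cyp27b1. Without No MM 3 and No MM 4, 0 of the 9 were past the unadjusted limit in edgeR, beside 2.51% of all genes higher and 3.37% lower.

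**Figure D1:**
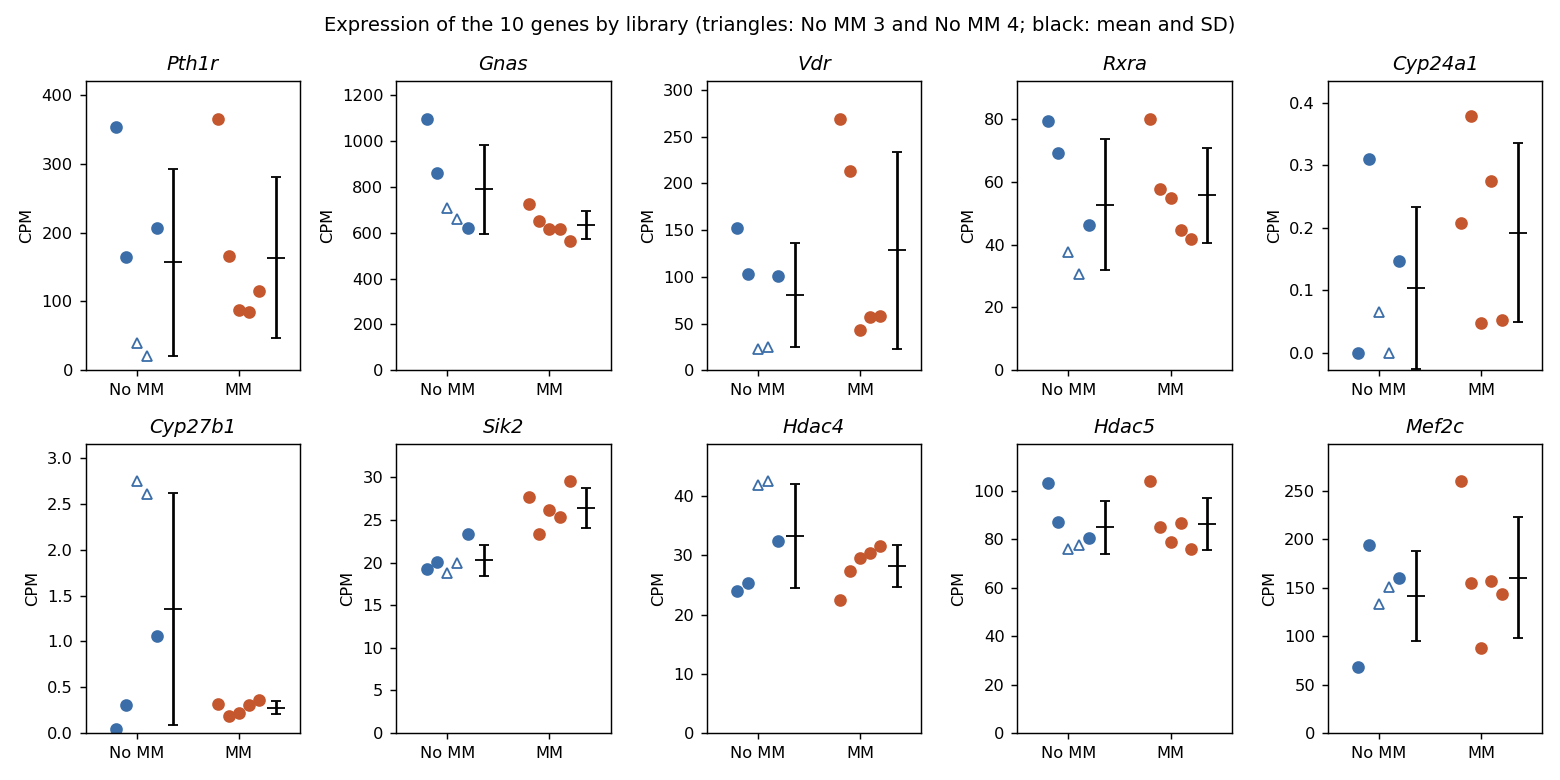
CPM (TMM-scaled) of each of the 10 genes in each library, with No MM in blue, MM in orange, No MM 3 and No MM 4 as open triangles, and the mean and SD of each group in black. The MM values of Sik2 lie between 23.38 and 29.5 CPM, above all No MM values, and the highest Cyp27b1 values are those of No MM 3 and No MM 4.

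The sequences just upstream of a RefSeq start site of Sik2, Cyp27b1, Pth1r and Vdr are shown first. They were picked because Sik2 and Cyp27b1 had the lowest p-values of the 9 genes and Pth1r and Vdr varied together between libraries. Each is 250 bases long, 5′ to 3′ on the strand of the gene, ends 1 base before the RefSeq start site, and comes from RefSeq on GRCm38.p6. RefSeq gave 17 such sequences for 9 of the 10 genes. The Vdr start site used lies inside the gene span given for Vdr below, and so does its sequence. Capitals mark the GC box GGGCGG on either strand (CCGCCC on the other) and the TATA-like motif TATATA, which reads the same on both strands.
Sik2 (chr9:51009074-51009323, minus strand): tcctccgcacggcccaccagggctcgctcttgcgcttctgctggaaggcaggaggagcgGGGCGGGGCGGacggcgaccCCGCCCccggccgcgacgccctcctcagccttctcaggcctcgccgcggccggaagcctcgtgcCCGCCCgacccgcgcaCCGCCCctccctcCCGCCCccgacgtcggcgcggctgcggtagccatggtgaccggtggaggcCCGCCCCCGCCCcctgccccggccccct
Cyp27b1 (chr10:127047996-127048245, plus strand): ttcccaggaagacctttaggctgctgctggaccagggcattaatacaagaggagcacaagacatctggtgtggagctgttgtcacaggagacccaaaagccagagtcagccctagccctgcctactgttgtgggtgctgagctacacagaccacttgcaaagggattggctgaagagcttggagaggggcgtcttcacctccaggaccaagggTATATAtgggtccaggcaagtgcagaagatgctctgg
Pth1r (chr9:110743687-110743936, minus strand): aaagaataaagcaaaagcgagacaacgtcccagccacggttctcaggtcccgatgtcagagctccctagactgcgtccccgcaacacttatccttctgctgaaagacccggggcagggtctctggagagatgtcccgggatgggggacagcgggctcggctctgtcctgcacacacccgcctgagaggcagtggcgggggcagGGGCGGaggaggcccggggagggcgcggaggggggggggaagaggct
Vdr (chr15:97908297-97908546, minus strand): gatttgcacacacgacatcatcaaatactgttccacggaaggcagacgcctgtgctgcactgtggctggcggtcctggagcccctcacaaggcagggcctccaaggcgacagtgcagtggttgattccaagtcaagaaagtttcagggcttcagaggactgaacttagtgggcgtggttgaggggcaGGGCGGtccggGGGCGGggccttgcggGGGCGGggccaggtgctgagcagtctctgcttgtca
Within its 80.0% G and C, the Sik2 window held 8 GC boxes, 2 on the strand of the gene and 6 on the other, and some of them abut. The Vdr window held 3, the Pth1r window held 1, and the Cyp27b1 window held none. Of the other 2 RefSeq windows of Pth1r, not shown, one held 4 GC boxes and the other held TGACG. Of 32851 RefSeq windows of the same kind, 32.7% held a GC box. TATATA was present in the Cyp27b1 window and in 5.25% of all windows. The cyclic AMP response half-site TGACG, found in 17.8% of all windows, and the nuclear receptor half-site AGGTCA, found in 14.0%, were in none of the 4 windows shown, searched on both strands. Among the windows not shown, TGACG was also in windows of Gnas and Hdac4, and AGGTCA in windows of Rxra and Mef2c.

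Per kilobase of the deposited gene length, levels spanned more than 3 orders of magnitude. The median over the 10 libraries was 166 CPM per kilobase for Gnas, 62.0 for Pth1r, 23.8 for Mef2c, 18.2 for Vdr, 15.3 for Hdac5, 10.3 for Rxra, 4.35 for Sik2, 3.70 for Hdac4, 0.127 for Cyp27b1 and 0.0297 for Cyp24a1. The order of neighbours held in all 10 libraries for Gnas over Pth1r, Hdac5 over Rxra, Rxra over Sik2 and Hdac4 over Cyp27b1. Pth1r exceeded Mef2c in 8 libraries, Mef2c exceeded Vdr in 7, Vdr exceeded Hdac5 in 5, Sik2 exceeded Hdac4 in 8 and Cyp27b1 exceeded Cyp24a1 in 9. Vdr and Hdac5 therefore had no fixed order, and the 2 vitamin D enzymes were far below the receptors that sense the hormones.

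**Figure D2:**
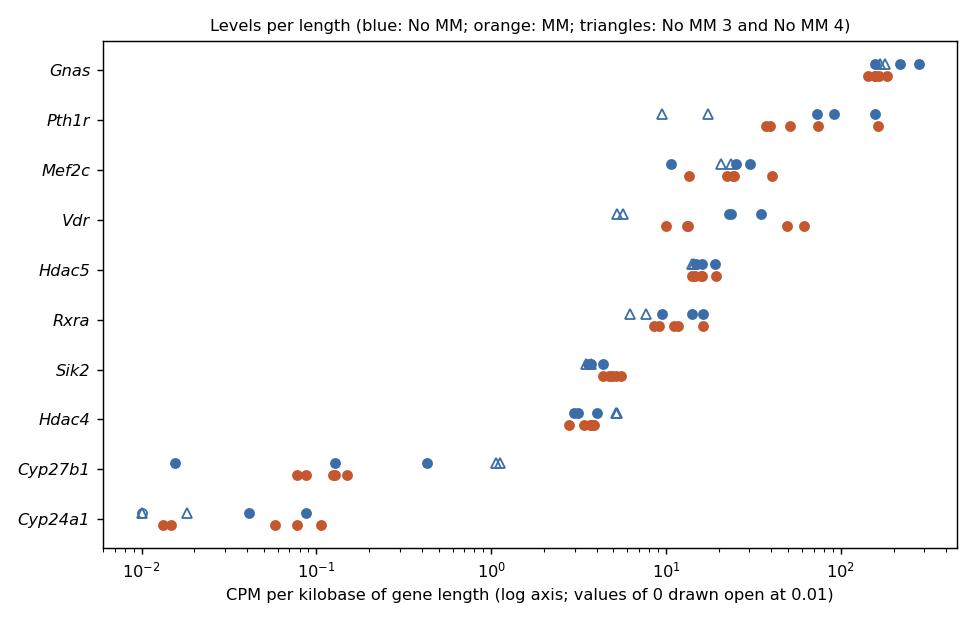
Level of each gene in each library in CPM per kilobase of gene length on a log axis, with No MM in blue, MM in orange, and No MM 3 and No MM 4 as triangles. Gnas lies between 142 and 278 and Cyp24a1 at or below 0.106, while Pth1r and Vdr spread most widely among the well-expressed genes.

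Pth1r, the PTH receptor gene (chr9:110722088-110743686), had 354, 164, 38.9, 21.4 and 206 CPM in No MM 1 to 5, and 366, 166, 88.1, 84.0 and 115 CPM in MM 6 to 10. The groups overlapped over nearly their whole range, and No MM 3 and No MM 4 were the lowest of all libraries. The means were 157 ± 135.5 and 164 ± 118 CPM (SD, n = 5 each). The log2 fold change, MM over No MM, was 0.06 (SE 0.69, edgeR adjusted p = 0.977), and it turned to -0.58 (SE 0.51, edgeR adjusted p = 0.696) without No MM 3 and No MM 4. The highest library exceeded the lowest 17.1-fold, and 4.36-fold within the other 8.

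Gnas (chr2:174284320-174346744) encodes the G protein subunit that couples the receptor to adenylyl cyclase. It had 1098, 863, 707, 661 and 621 CPM in No MM 1 to 5, and 724, 652, 619, 616 and 562 CPM in MM 6 to 10. No MM 1 and No MM 2 were above every MM library, and the other values overlapped. The means were 790.0 ± 195 and 634 ± 59.5 CPM (SD, n = 5 each), with a log2 fold change of -0.32 (SE 0.21, edgeR adjusted p = 0.499; exact permutation test, two-sided, p = 0.111). The value was -0.46 (SE 0.23, edgeR adjusted p = 0.643) without No MM 3 and No MM 4, where the exact permutation test over 56 splits gave a two-sided p of 0.0536. The antisense gene Nespas lies within this locus and had 2 to 83 reads, beside 18216 to 30652 for Gnas.

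Vdr (chr15:97854425-97910630) encodes the vitamin D receptor. It had 152, 103, 22.8, 24.9 and 100.4 CPM in No MM 1 to 5, and 269, 214, 43.4, 57.3 and 58.4 CPM in MM 6 to 10. MM 6 and MM 7 were the highest libraries, No MM 3 and No MM 4 the lowest, and the remaining MM libraries were below No MM 1, 2 and 5. The means were 80.6 ± 55.8 and 128 ± 105 CPM (SD, n = 5 each). The log2 fold change was 0.67 (SE 0.66, edgeR adjusted p = 0.651), and without No MM 3 and No MM 4 it was 0.10 (SE 0.62, edgeR adjusted p = 0.962).

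Rxra (chr2:27676440-27762957), which encodes the partner of the vitamin D receptor and of several other nuclear receptors, had 79.5, 69.1, 37.7, 30.6 and 46.3 CPM in No MM 1 to 5. In MM 6 to 10 it had 80.1, 57.7, 54.7, 44.7 and 41.7 CPM. Again No MM 3 and No MM 4 were the lowest, and the groups overlapped. The means were 52.7 ± 20.9 and 55.8 ± 15.1 CPM (SD, n = 5 each), and the log2 fold change was 0.08 (SE 0.28, edgeR adjusted p = 0.910). Without No MM 3 and No MM 4 it was -0.24 (SE 0.25).

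Between libraries, Pth1r and Vdr were high where the osteoblast markers were high. Because No MM 3 and No MM 4 form a cluster of their own, correlations are given over the other 8 libraries, which share the scaling to library size and differ in cell makeup, as a description without a p. Pearson's r of log2 CPM was 0.92 for Pth1r with the mean of the osteoblast markers (Spearman's rho 0.93), 0.77 for Vdr (rho 0.79) and 0.50 for Rxra (rho 0.62). The osteoblast markers were not alone in this. With the 11 osteoclast markers, r was 0.97 for Pth1r (rho 0.95), 0.79 for Vdr (rho 0.83) and 0.62 for Rxra (rho 0.67), and with the endothelial markers it was 0.82, 0.72 and 0.71. With the osteocyte markers, r was 0.63 for Pth1r, 0.75 for Vdr and 0.48 for Rxra. The highest r of Rxra was 0.80, with the skeletal muscle markers. Among the receptors themselves, r was 0.85 for Pth1r with Vdr, 0.76 for Pth1r with Rxra and 0.70 for Vdr with Rxra.

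Pth1r and Vdr were also set against the osteoblast markers of the same library. The log2 level of Pth1r minus the mean log2 level of the markers was -1.90 ± 0.45 in No MM and -2.12 ± 0.17 in MM (SD, n = 5 each; exact permutation test, two-sided, p = 0.333). No MM 3 and No MM 4, at -1.51 and -1.97, lay within the range of the other No MM libraries, -2.55 to -1.44. For Vdr the differences were -2.60 ± 0.68 and -2.65 ± 0.67 (n = 5 each, exact permutation test, two-sided, p = 0.913). Here No MM 3 and No MM 4, at -2.28 and -1.75, lay above the range of the other No MM libraries, -3.59 to -2.66. In bulk samples, fewer cells of a type and less RNA per cell cannot be told apart.

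**Figure D3:**
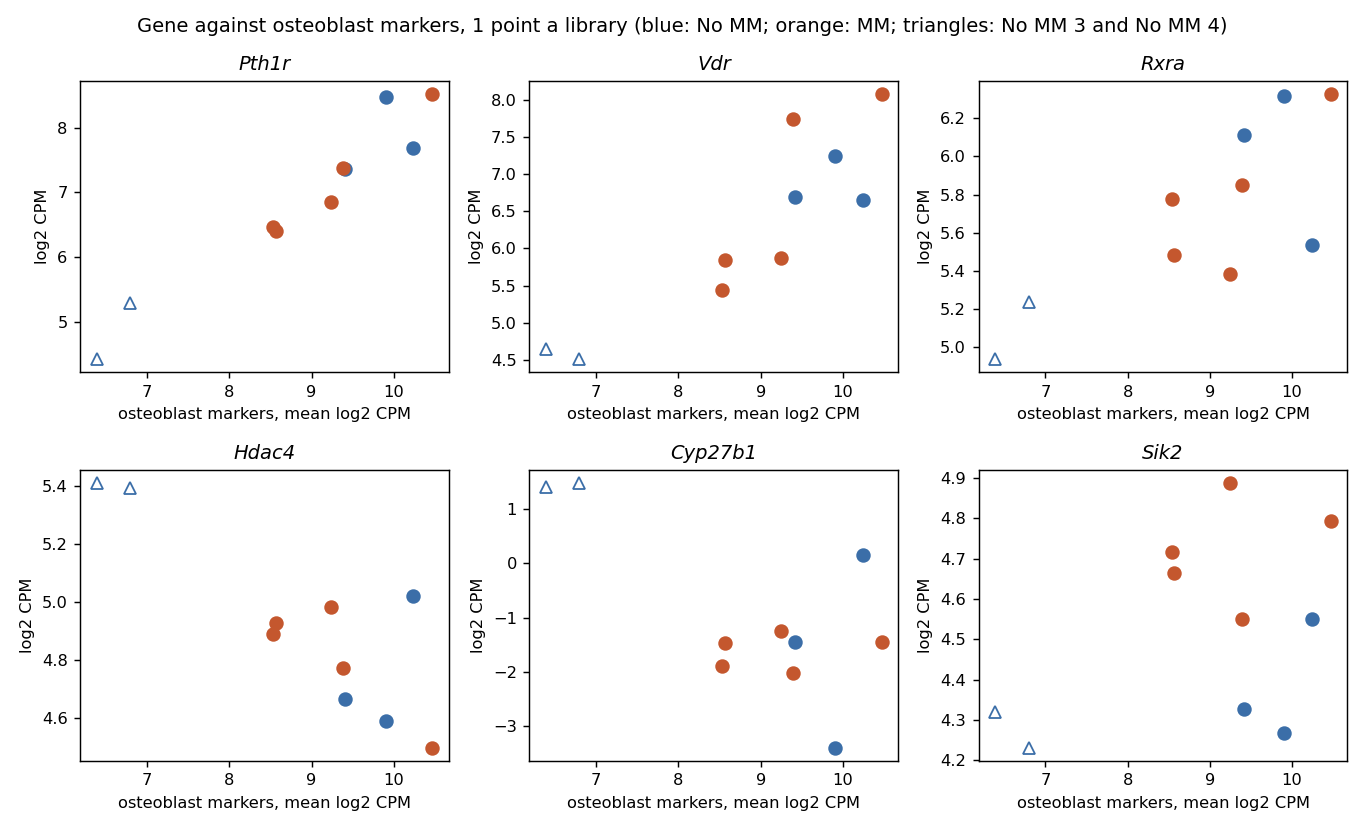
The log2 CPM of 6 genes against the mean log2 CPM of 10 osteoblast markers, 1 point per library, with No MM in blue, MM in orange, and No MM 3 and No MM 4 as open triangles. Those libraries lie at 6.39 to 6.79 on the marker axis, the other 8 at 8.53 to 10.47, and within the 8 Pth1r rises with the markers (r = 0.92) whereas Sik2 does not (r = -0.19).

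Cyp27b1, the gene of the enzyme that makes active vitamin D (chr10:127048250-127053006), had 1, 11, 85, 72 and 43 reads in No MM 1 to 5, and 12, 7, 9, 11 and 14 reads in MM 6 to 10. These are 0.0381, 0.310, 2.75, 2.61 and 1.05 CPM in No MM, and 0.310, 0.189, 0.213, 0.303 and 0.364 CPM in MM. No MM 3, 4 and 5 exceeded every MM library, No MM 1 was under all of them and below the 3 counts taken as detectable, and No MM 2 lay among them. The means were 1.35 ± 1.27 and 0.276 ± 0.073 CPM (SD, n = 5 each), and the log2 fold change was -2.28 (SE 0.81, edgeR unadjusted p = 0.0166, adjusted p = 0.315). The exact permutation test gave a two-sided p of 0.198.

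The size of the Cyp27b1 difference rested on No MM 3 and No MM 4. Without them the log2 fold change was -0.80 (SE 0.71, edgeR unadjusted p = 0.288). Within the 7 libraries with few Y-linked reads, which include both, it was -2.56 (SE 1.20, edgeR unadjusted p = 0.0645). With 1 surrogate variable it was -0.90 (edgeR unadjusted p = 0.177), and with the B cell, osteoblast or plasma cell markers as a covariate it was -1.14, -1.46 or -1.02 (edgeR unadjusted p = 0.150, 0.0646 and 0.204). With the skeletal muscle or the Y-linked score as a covariate it kept its size, at -2.36 and -2.31 (edgeR unadjusted p = 0.0219 and 0.0273). Over the 8 other libraries the Cyp27b1 level ran opposite to the 13 monocyte and macrophage markers (r = -0.79, rho = -0.83). With the plasma cell markers r was -0.64 (rho -0.52). These r values rest on low counts, from 1 read in No MM 1 to 43 in No MM 5. The monocyte and macrophage markers summed to 1333 to 1710 CPM in No MM 3 and No MM 4 and to 1686 to 3916 CPM in the other 8. The part of either marker set in the result was not tested.

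Cyp24a1, the vitamin D 24-hydroxylase gene and a direct target of the vitamin D receptor (chr2:170482708-170497145), had 0, 11, 2, 0 and 6 reads in No MM 1 to 5 and 8, 14, 2, 10 and 2 reads in MM 6 to 10. Both groups held libraries at or under the 3 counts taken as detectable, so no fold change is given. The means were 0.104 ± 0.130 and 0.192 ± 0.144 CPM (SD, n = 5 each, exact permutation test, two-sided, p = 0.262), and a difference was not detectable at this depth. Pfdn4, which overlaps Cyp24a1 on the opposite strand, had 391 to 788 reads, and strand use in counting is not given.

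Sik2, the salt-inducible kinase gene (chr9:50892801-51009073), was the only one of the 9 whose groups did not overlap. It had 19.2, 20.0, 18.7, 19.9 and 23.37 CPM in No MM 1 to 5, and 27.7, 23.38, 26.2, 25.3 and 29.5 CPM in MM 6 to 10. The separation rested on the narrow margin between No MM 5 and MM 7. The means were 20.2 ± 1.82 and 26.4 ± 2.33 CPM (SD, n = 5 each). The log2 fold change was 0.38 (SE 0.14, edgeR unadjusted p = 0.0171, adjusted p = 0.315), and the exact permutation test gave a two-sided p of 0.00794, the smallest that 5 against 5 allows. All 5 MM values were higher in 0.729% of the tested genes and all 5 lower in 0.68%.

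The Sik2 difference was nearly as large without No MM 3 and No MM 4, at 0.32 (SE 0.15, edgeR unadjusted p = 0.0554), and the groups still did not overlap (exact permutation test over 56 splits, two-sided, p = 0.0179, the smallest that 5 against 3 allows). In that smaller set all MM values were higher in 2.46% of the tested genes and all lower in 1.53%. Within the 7 libraries with few Y-linked reads it was 0.41 (SE 0.19, edgeR unadjusted p = 0.0681). With RLE or upper quartile factors in place of TMM the groups overlapped, with log2 fold changes of 0.40 and 0.41. The unadjusted limit was also missed without MM 10 (0.34, edgeR unadjusted p = 0.0513) and with the plasma cell markers as a covariate (0.31, edgeR unadjusted p = 0.0570). Ppp2r1b, which overlaps Sik2 on the opposite strand, had a log2 fold change of 0.00 (edgeR adjusted p = 0.997).

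Hdac4 (chr1:91928779-92180341) encodes a class IIa histone deacetylase. It had 24.0, 25.3, 41.9, 42.5 and 32.4 CPM in No MM 1 to 5, and 22.5, 27.3, 29.6, 30.4 and 31.5 CPM in MM 6 to 10. No MM 3 and No MM 4 were the highest libraries, the reverse of their place for the receptors, and the other values overlapped. The means were 33.2 ± 8.81 and 28.3 ± 3.56 CPM (SD, n = 5 each). The log2 fold change was -0.23 (SE 0.20, edgeR adjusted p = 0.604), and 0.04 (SE 0.17) without those libraries.

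Hdac5 (chr11:102194432-102230166), a second class IIa deacetylase gene, had the smallest spread of the 9 tested genes. It had 103, 87.3, 76.0, 77.6 and 80.5 CPM in No MM 1 to 5, and 104, 85.3, 78.9, 86.8 and 76.2 CPM in MM 6 to 10, a spread of 1.37-fold from lowest to highest. The means were 84.9 ± 11.1 and 86.2 ± 10.8 CPM (SD, n = 5 each), and the log2 fold change was 0.02 (SE 0.14, edgeR adjusted p = 0.956). Per kilobase, Hdac5 exceeded Hdac4 by 4.16 ± 1.62 times in No MM and 4.70 ± 1.30 times in MM (n = 5 each, exact permutation test, two-sided, p = 0.571), with the lowest ratios, 2.72 and 2.73, in No MM 3 and No MM 4.

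Mef2c, the transcription factor gene on which the deacetylases act (chr13:83504034-83667079), had 68.4, 195, 133, 151 and 160.4 CPM in No MM 1 to 5. In MM 6 to 10 it had 260.0, 155, 87.5, 157 and 143 CPM. MM 6 was the highest and No MM 1 the lowest, No MM 3 and No MM 4 lay in the middle, and the groups overlapped. The means were 141.5 ± 46.6 and 160.5 ± 62.4 CPM (SD, n = 5 each), with a log2 fold change of 0.18 (SE 0.32, edgeR adjusted p = 0.813).

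The 4 genes of the kinase arm did not rise and fall as a group. Over the 8 libraries, Hdac4 and Hdac5 ran opposite to each other, with an r of log2 CPM of -0.89 (rho -0.83). The other pairs were weaker. For Sik2, r was 0.38 with Hdac4 (rho 0.21), -0.39 with Hdac5 (rho -0.405) and 0.34 with Mef2c (rho 0.10). For Mef2c, r was -0.13 with Hdac4 (rho -0.14) and 0.06 with Hdac5 (rho 0.405). Hdac4 ran opposite to Rxra (r = -0.97, rho = -0.93). Hdac4, Hdac5 and Rxra also varied with markers of other cell types, whose part was not tested. With the skeletal muscle markers, r was -0.84 for Hdac4, 0.81 for Hdac5 and 0.80 for Rxra. The endothelial markers gave -0.76, 0.87 and 0.71 in the same order. Mef2c had r = 0.63 with the osteocyte markers (rho 0.79), the highest of the 4 genes of the kinase arm, and Sik2 had -0.45 (rho -0.43).

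**Figure D4:**
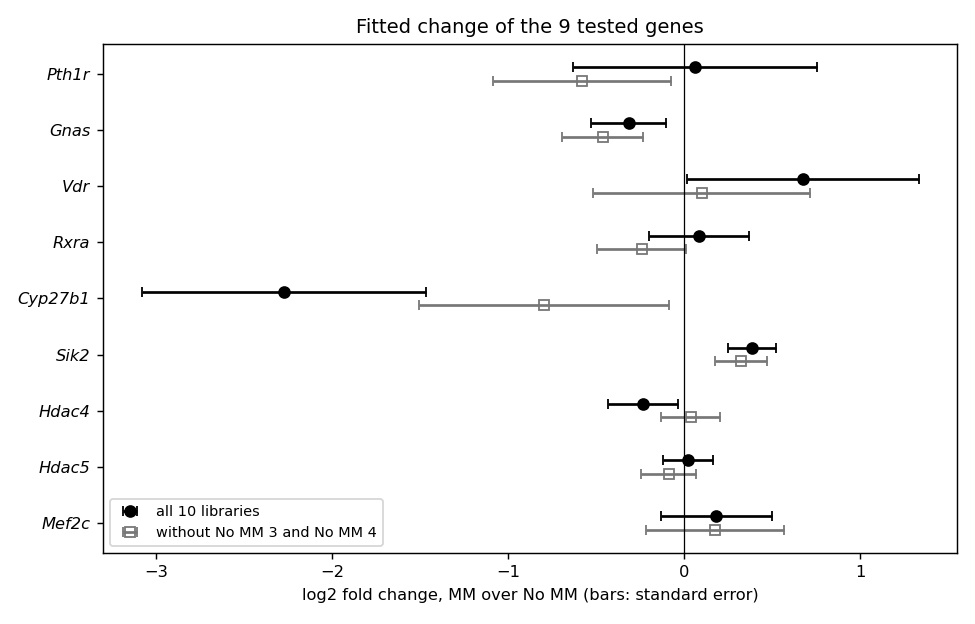
Fitted log2 fold change, MM over No MM, with its standard error for the 9 tested genes in all 10 libraries (black) and without No MM 3 and No MM 4 (gray squares). Cyp27b1 moves from -2.28 to -0.80 and Pth1r from 0.06 to -0.58, while Sik2 stays near 0.38 and 0.32.

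By likeness of log2 CPM over the 10 libraries, the gene nearest to Pth1r was Copz2 (r = 0.986 over the 8 libraries), followed by Sema3b and Jdp2. The genes named here were picked for a high r over the 10 libraries, which include these 8. A high r over the 8 therefore follows from the choice and is a description only. Nearest to Vdr were Ccdc170, Ephb2 and Foxf2 (0.950, 0.947 and 0.976 over the 8), and nearest to Rxra were Calhm2, Akr1e1 and Nfix (0.967, 0.954 and 0.965). Gnas was closest to Akt2, Atp5j2 and Ndufa13 (0.991, 0.985 and 0.991). Cyp27b1 was closest to Slc38a2, Hoxd8 and Tmem18 (0.961, 0.963 and 0.943). In the kinase arm, Sik2 was nearest to Arhgap27os3, Pias3 and Map3k19 (0.940, 0.910 and 0.918), Hdac4 to Zfp599, Arih2 and Tomm70a (0.970, 0.928 and 0.948), Hdac5 to Cmtm8, Fah and Ppara (0.947, 0.977 and 0.930), and Mef2c to Hmcn1 and Hmgcs1 (0.996 and 0.987).

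The wider pathway was read from 5 lists holding 152 genes, the 10 genes included, of which 135 were tested. No gene of any list passed the adjusted threshold in edgeR. At an unadjusted p under 0.05, 11 genes were higher in MM and 6 lower, beside 3.81% and 10.3% of all tested genes. Without No MM 3 and No MM 4 the counts were 6 and 3, beside 2.51% and 3.37%, and these shares over all genes are the background for each list. The median log2 fold change of all tested genes was -0.03.

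In the PTH signaling list, 6 of 46 tested genes were higher and 1 was lower, with a median log2 fold change of 0.19, where 3.81% of all tested genes were higher and 10.3% lower. Without No MM 3 and No MM 4, 2 were higher and 1 lower, and the median was 0.09. Adcy7, an adenylyl cyclase that makes cyclic AMP, had 57.9 ± 16.7 CPM in No MM and 104 ± 34.6 CPM in MM (SD, n = 5 each; log2 fold change 0.85, SE 0.25, edgeR unadjusted p = 0.00612), and without No MM 3 and No MM 4 the value was 0.70 (edgeR unadjusted p = 0.0383). Adcy6, another cyclase (0.44), Pde3b, a phosphodiesterase that degrades cyclic AMP (0.97), Prkcd, a protein kinase C (0.50), Arrb2, an arrestin that desensitizes receptors (0.63), and Gnaq, the alpha subunit that couples to phospholipase C (0.40), were also higher at the unadjusted limit. Pkig, an inhibitor of protein kinase A, was lower, with 82.8 ± 41.6 CPM in No MM and 38.5 ± 4.27 in MM (log2 fold change -1.10, SE 0.34, edgeR unadjusted p = 0.00728). It was at 128 and 117 CPM in No MM 3 and No MM 4 and between 31.4 and 87.9 CPM elsewhere. Of these 7 genes, Adcy7 alone was past the unadjusted limit without those libraries. The other 2 past it there, named after their values were seen, were Pde7a, a phosphodiesterase gene (0.59, edgeR unadjusted p = 0.0238), and Prkar1b, a regulatory subunit of protein kinase A (-0.85, edgeR unadjusted p = 0.0282).

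In the list of salt-inducible kinases, CRTC coactivators, class IIa deacetylases and MEF2 factors, Sik2 was the only 1 of 20 tested genes past the unadjusted limit, and the median was 0.08. Its relative Sik1, named after its values were seen, was at 250 and 304 CPM in No MM 3 and No MM 4 and at 23.1 to 63.9 CPM in the other 8 libraries (log2 fold change -1.50, SE 0.71, edgeR adjusted p = 0.368, and 0.54 without them). Crtc2, a cyclic AMP-regulated coactivator also named afterwards, had 0.26 with all libraries (edgeR unadjusted p = 0.102) and 0.42 without No MM 3 and No MM 4 (edgeR unadjusted p = 0.0115).

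Of 29 tested PTH target genes, 1 was higher and 1 lower, with a median of 0.30. The list mixes genes that the pathway restrains, such as Sost, with genes induced by cyclic AMP, such as Fosb. Its median therefore has no expected direction. When No MM 3 and No MM 4 were left out, 0 were higher and 0 lower and the median was 0.09, and without MM 6 alone the median was 0.04. The higher one was Nr4a1, an immediate early nuclear receptor gene (13.4 ± 4.16 to 24.3 ± 9.33 CPM, n = 5 each, log2 fold change 0.86, edgeR unadjusted p = 0.0138), and it was 0.64 without No MM 3 and No MM 4 (edgeR unadjusted p = 0.0699). Fosb, a transcription factor gene induced early by cyclic AMP, was lower (-2.31, edgeR unadjusted p = 0.00956), but at 6.20 and 5.34 CPM in No MM 3 and No MM 4 against 0.284 to 0.838 CPM elsewhere. Sost, the sclerostin gene at the end of the kinase arm and named after its values were seen, had 345 ± 372 CPM in No MM and 261 ± 182 in MM (n = 5 each, log2 fold change -0.40, SE 0.70, edgeR adjusted p = 0.813), and the log2 fold change was -0.91 without No MM 3 and No MM 4 (edgeR unadjusted p = 0.244). Its range was 110 to 995 CPM in No MM and 68.3 to 501 CPM in MM.

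Among 24 tested genes of vitamin D metabolism and its receptor complex, 1 was higher and 2 were lower, with a median of 0.08. When No MM 3 and No MM 4 were left out, 3 of 26 were higher and 0 lower, namely Cyp27a1 and, named after their values were seen, the coactivator genes Ncoa3 (0.41, edgeR unadjusted p = 0.0488) and Med1 (0.45, edgeR unadjusted p = 0.0311). Cyp27a1, a mitochondrial sterol hydroxylase that can also add the 25-hydroxyl group to vitamin D, had 11.8 ± 2.00 CPM in No MM (8.53 to 13.4) and 19.97 ± 4.65 in MM (15.3 to 26.2; n = 5 each), and the groups did not overlap, as in 0.729% of all tested genes with every MM value higher. Its log2 fold change was 0.76 (SE 0.21, edgeR unadjusted p = 0.00382, adjusted p = 0.315), with 0.80 (edgeR unadjusted p = 0.0083) without No MM 3 and No MM 4. Under RLE and upper quartile factors, and with immunoglobulin genes left out, its groups stayed apart, as they did without No MM 3 and No MM 4. The groups of Gnaq did not overlap with all 10 libraries. They overlapped under upper quartile factors, with immunoglobulin genes left out, and without No MM 3 and No MM 4. Dhcr7, which turns the vitamin D precursor into cholesterol, was the second lower gene beside Cyp27b1 (25.3 ± 10.4 to 14.4 ± 2.14 CPM, n = 5 each, log2 fold change -0.81, edgeR unadjusted p = 0.0166), and had -0.40 without No MM 3 and No MM 4.

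Of 23 tested vitamin D target genes, 2 were higher and 2 lower, and the median of 0.14 turned to -0.08 without No MM 3 and No MM 4. Atp2b1, a calcium pump of the plasma membrane (0.53), and Slc20a1, a phosphate transporter (0.43), were higher. Enpp1, which makes the mineralization inhibitor pyrophosphate (-1.11), and Igfbp3, an insulin-like growth factor binding protein gene (-1.52), were lower, and Enpp1 stood at 249 and 183 CPM in No MM 3 and No MM 4 against 39.8 to 82.5 CPM elsewhere. None of the 4 was past the unadjusted limit without those libraries, where 2 of 24 genes were lower, both named after their values were seen: the cell cycle inhibitor gene Cdkn1a (-0.75, edgeR unadjusted p = 0.0352) and Enpp3 (-0.62, edgeR unadjusted p = 0.0375).

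**Figure D5:**
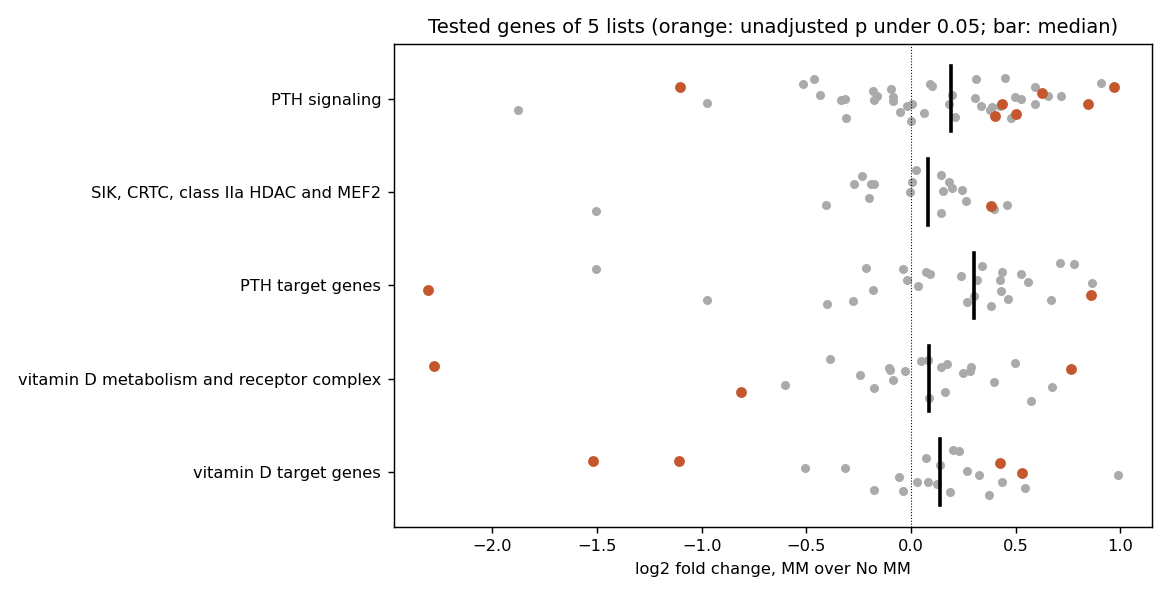
Log2 fold change, MM over No MM, of every tested gene of the 5 lists, with genes at an unadjusted edgeR p under 0.05 in orange and the median of each list as a black bar. The medians lie between 0.08 and 0.30, and the genes furthest to the left include Fosb at -2.31 and Cyp27b1 at -2.28.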

How the data were processed

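One RNA-seq library per mouse was made with a stranded total RNA kit (TruSeq) and read as 76-base paired ends, so replicates are mice. Submitters' processing notes name FastQC 0.11.5 and STAR; the counting program and the genome build are not given in the sources used here. Coordinates of 7 of the 10 genes, and of 68.4% of the identifiers found in GENCODE M21 (GRCm38), equal that annotation (those of Pth1r, Hdac4 and Mef2c differ).

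The authors deposited whole-number read counts per gene and library, and these counts alone were analyzed. The authors also deposited a size-factor-normalized signal, FPKM values, log2 fold changes and p-values of their own comparison, none of which was used. Depth was 31099174 to 39466332 counted reads. The count taken as detectable covers counting error only, whereas the SDs and the standard errors of the fits also hold variation between mice.

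Counts were filtered with filterByExpr, scaled by TMM and compared by the quasi-likelihood test (glmQLFit, glmQLFTest) of edgeR 4.0.16 (R 4.3.3), MM against No MM with no covariate, with Benjamini-Hochberg adjustment over 16186 genes and a threshold of 0.05. Standard errors of the edgeR log2 fold changes were derived from the F statistic of that test. Each is the absolute log2 fold change over the square root of F, and so is not independent of the p. Log2 CPM used a prior count of 2. Exact permutation tests used log2 CPM, two-sided. The procedure was run on simulated counts with the same dispersion for all genes and changes larger than that of Sik2. The simulation held no libraries set apart in makeup like No MM 3 and No MM 4, so it does not test their effect. Alternatives were DESeq2 1.42.0 (which tested 22438 genes), RLE and upper quartile factors, no filter, at least 10 reads in every library, immunoglobulin genes left out, 1 surrogate variable (sva 3.50.0), B cell and skeletal muscle scores as covariates, No MM 3 and No MM 4 left out, and each mouse left out. Osteoblast, plasma cell and Y-linked scores as covariates and the 7 libraries with few Y-linked reads were added after seeing the data.

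The 10 genes, the lists and the tests were chosen with earlier results of these data known. Genes named were the 10, list genes at an unadjusted p under 0.05 or without overlap between groups, and the 3 genes most correlated with each of the 9 tested genes, of which 1 is not reported here. Sik1, Crtc2, Sost and the list genes past the unadjusted limit only without No MM 3 and No MM 4 were named after their values were seen. Antisense and overlapping genes are uncertain, since strand use in counting is not given.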

Additional observations from a re-analysis of the deposited data

Results flagged for a closer look

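The Sik2 level of No MM 5, 23.37 CPM, was far from the other No MM libraries, which lay between 18.74 and 20.02 CPM. Its gap to the nearest was 0.724 of the range of the group, above the Dixon critical value of 0.71 for 5 samples. Of 20 groups examined, 1 had such a library, and chance gives 1.0. No MM 5 is the library nearest to the MM values, and without it the log2 fold change of Sik2 was 0.44 (edgeR unadjusted p = 0.0105).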

How the results depend on the processing

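No paired analysis was possible because mice of the groups carry different numbers in the labels. Over 24 alternatives (23 for Cyp27b1, which has no value with at least 10 reads in every library), Gnas, Vdr, Cyp27b1 and Sik2 kept their direction, with ranges of -0.46 to -0.17, 0.06 to 1.21, -2.59 to -0.80 and 0.31 to 0.44, and no adjusted p of these genes was under 0.0706. DESeq2 called 31 genes higher and 176 lower, where edgeR called 0 (617 higher and 1664 lower at unadjusted p). Values that moved or turned are given next, and the cause was not tested. With DESeq2, 968 genes were higher at unadjusted p and 11 list genes lower. With 1 surrogate variable, 857 genes and 3 list genes were lower, and Pth1r was -0.38, Rxra -0.17, Hdac4 0.018 and Hdac5 -0.057. With the B cell score, 632 genes and 1 list gene were lower, Rxra was -0.0073 and Hdac5 -0.015. With the skeletal muscle score, 339 genes were higher and 1049 lower, with 7 list genes higher. With the plasma cell score, 235 genes were higher and 341 lower, with 3 and 2 list genes, and Pth1r was -0.74, Rxra -0.25, Hdac4 0.046 and Hdac5 -0.062. With the osteoblast score, Pth1r was -0.23, Rxra -0.078 and Hdac5 -0.036. With the Y-linked score, 795 genes were lower, and within the 7 libraries 7 list genes were higher and 3 lower. Without No MM 3 and No MM 4, 560 genes were lower, 6 list genes higher and 3 lower, 409 genes had all MM values higher and 254 all lower, and Pth1r was -0.58, Rxra -0.24, Hdac4 0.036 and Hdac5 -0.089. Leaving out each mouse gave 291 to 1276 genes higher and 939 to 2376 lower, 5 to 17 list genes higher and 4 to 10 lower, and log2 fold changes of -0.47 to 0.60 for Pth1r, -0.084 to 0.28 for Rxra, -0.054 to 0.10 for Hdac5 and -0.060 to 0.34 for Mef2c. Pth1r, Rxra and Hdac5 turned without No MM 3, No MM 4 or MM 6, and Mef2c without MM 6. The median of the vitamin D metabolism list ran from -0.0506 (without MM 6) to 0.15. That of the vitamin D target list, 0.14 with all libraries, was -0.15 with the plasma cell score and -0.047 with 1 surrogate variable. It was -0.08 without No MM 3 and No MM 4, and -0.0005 without No MM 4 alone. The higher count moved by over 1.5 times without No MM 3, 4 or 5 or MM 8 or 9, the lower count without No MM 3 or 4 or MM 10, and the list counts without No MM 1, 2 or 3 or MM 8, 9 or 10. Depth limits Cyp24a1 and Cyp27b1, which had 0 to 14 and 1 to 85 reads.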
